A study of Mus musculus with 9 samples.

Results

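The genes described here are the keratins of simple epithelia and the epithelial junction genes that were measured while mouse embryonic stem cells (mESCs) differentiated towards neural cells, namely Krt7, Krt8, Krt18, Krt19, Epcam, Cdh1 and Cldn6. They were taken by gene symbol, with every probe that the annotation of the array gives them, and the rule names no measured value, though the genes were chosen with earlier results of these data known. Of the 7 genes, 5 were measured, with 7 probes of the 46643 on the array (19403 genes). The other 2, Epcam (a homophilic adhesion molecule of epithelia) and Cldn6 (a claudin of embryonic epithelia), matched no probe in that annotation by symbol, gene identifier or accession and were not analysed here.

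The 9 conditions were each measured on 1 Illumina mouse whole-genome bead array. The mESCs, labelled as line G6B-2 from mouse blastocyst, were sampled undifferentiated (ES) and on the second day of embryoid body (EB) formation. Day 8 EBs had been exposed from day 2 to day 6 to 0.1% ethanol as vehicle or to retinoic acid (RA) at 1, 10 or 100 nM. Day 29 neural cultures had the same exposure to vehicle or to 10 or 100 nM RA and were sampled on day 29. The design text of the series names another solvent and substances that no sample label carries, and the labels were followed. Per the methods of the study, RNA of several biological replicates was mixed before hybridisation, so that there is 1 value per condition, no replicate error and no p-value, and every difference below is a difference between 2 arrays. In such bulk samples, fewer cells of a type and less RNA per cell cannot be told apart.

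Keratins form the intermediate filaments of epithelial cells as pairs of a type II and a type I chain. Krt8 and Krt18 are the first pair made in the mouse embryo and are the filament pair of simple, one-layered epithelia, such as extraembryonic endoderm and trophectoderm, where Krt7 and Krt19 join them. Stratified epithelia such as epidermis use other pairs, among them Krt5 with Krt14. Cdh1 encodes E-cadherin, the calcium-dependent adhesion molecule that holds mESCs and epithelial cells together at adherens junctions, and claudins form the strands of tight junctions.

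Krt7 and Krt8 lie in the type II keratin cluster on chromosome 15, Krt18 is the type I gene that lies at the end of it beside Krt8, and Krt19 lies in the type I cluster on chromosome 11. The RefSeq gene table (GRCm38.p6) placed 2 predicted genes between Krt8 and Krt18. Of 26 keratin genes on chromosome 15, 23 had a probe. Of these 23, 8 were detected on no array, 10 on some arrays and 5 on all 9, namely Krt7, Krt8, Krt18, Krt6b and Krt77. Of 27 keratin genes on chromosome 11, 24 had a probe, and Krt19 was 1 of 5 detected on all 9 arrays, with Krt10, Krt14, Krt17 and Krt42. The promoters of Krt7, Krt8 and Krt18 are shown because these genes had the brightest keratin probes and because Krt8 and Krt18 had nearly the same profile. The levels of these probes are approximate, and brightness does not rank the genes, since probes differ in binding. Each runs from 250 bases before to 50 bases after the RefSeq start (GRCm38.p6), with capitals for any match to 6 short motifs searched on both strands.
Krt7 (chr15:101412153-101412452, + strand): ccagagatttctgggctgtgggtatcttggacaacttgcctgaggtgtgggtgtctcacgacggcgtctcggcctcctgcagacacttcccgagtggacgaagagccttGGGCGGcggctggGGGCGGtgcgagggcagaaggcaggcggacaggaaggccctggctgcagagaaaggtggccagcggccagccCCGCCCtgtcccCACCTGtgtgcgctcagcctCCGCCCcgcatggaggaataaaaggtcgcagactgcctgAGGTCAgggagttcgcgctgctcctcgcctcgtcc
Krt8 (chr15:102004293-102004592, - strand): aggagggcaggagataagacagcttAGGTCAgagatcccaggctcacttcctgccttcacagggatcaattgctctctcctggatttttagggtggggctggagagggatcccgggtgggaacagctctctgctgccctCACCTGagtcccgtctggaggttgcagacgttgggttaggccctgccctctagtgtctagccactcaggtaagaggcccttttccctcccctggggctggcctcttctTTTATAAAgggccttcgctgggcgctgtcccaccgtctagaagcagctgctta
Krt18 (chr15:102027966-102028265, + strand): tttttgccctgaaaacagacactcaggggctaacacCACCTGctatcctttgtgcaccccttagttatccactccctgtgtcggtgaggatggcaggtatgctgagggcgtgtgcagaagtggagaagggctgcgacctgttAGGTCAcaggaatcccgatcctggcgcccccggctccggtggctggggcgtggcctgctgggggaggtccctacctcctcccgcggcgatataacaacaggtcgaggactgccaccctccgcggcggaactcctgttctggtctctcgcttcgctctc
CAGGTG, the E-box that Snai and Zeb repressors bind, and AGGTCA, the half-site of nuclear receptors, each stood in all 3 promoters, against 20.2% and 16.3% of 32851 mouse promoters of the same length. The GC box GGGCGG stood 4 times in the Krt7 promoter and in neither of the others, and 35.7% of all promoters held it. TATAAA stood only in the Krt8 promoter, once on each strand with the 2 matches overlapping, against 13.6% of all promoters. The AP-1 site TGAGTCA (5.2% of all promoters) and the grainyhead core AACCGG (6.83%) matched none of the 3 windows. G and C made up 66.3% of the Krt7, 58.0% of the Krt8 and 61.3% of the Krt18 promoter, against a median of 52.7% over all promoters. The RefSeq promoter table used here gave none for Krt19 and Cdh1.

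Values below are scaled signals, that is, array signals recovered from the deposited log2 values and put on 1 scale by the median of those probes that every array detected, with the lowest recorded signal set to 5.0. Because probes differ in binding, signals are compared between arrays and not between genes. A probe counted as detected on an array from an unscaled signal of 29.1. The main probes of all 5 genes were far above this level on each array. Each array detected 44.4% to 49.3% of all probes, but the day 29 RA arrays had a higher background, with a 0.99 quantile of background probes of 56.0 at 10 nM and 77.6 at 100 nM, against 24.7 to 32.2 on the other 7 arrays. As a scale for array error, the spread of the 1 nM RA array over the vehicle array of day 8 was taken over probes of like signal. The limit used is the range that would hold 95% of normal values with the robust SD of that spread, which was 0.294 on the log2 scale for probes with a signal above 3904.0 and 0.352 for those from 1700.9 to 3904.0, and 0.414 to 0.585 where the main probe of a gene was dimmer. This limit is a description and not a test, it holds any effect of 1 nM RA, and it leaves out the spread between cultures.

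Krt7, a type II chain of simple and glandular epithelia, had the widest range of the 4 keratins, 4.35 log2 units. Its scaled signal was 862.5 in ES cells and 3301.8 in day 2 EBs. In day 8 EBs it was 17558.2 with vehicle, 12849.6 with 1 nM, 17288.3 with 10 nM and 12559.6 with 100 nM RA. In day 29 cultures it was 13155.5 with vehicle, 10732.7 with 10 nM and 8701.7 with 100 nM RA. The ES and day 2 values thus stood below all later ones, and the highest values were those of day 8 with vehicle and with 10 nM RA, which differed by 0.02 on the log2 scale, within the limit. The next 3, day 29 with vehicle and day 8 with 1 nM and 100 nM RA, followed each other with gaps of 0.03 between neighbours. The first of them was 0.39 below day 8 with 10 nM RA, past the limit, and the last 0.23 above day 29 with 10 nM RA, within it.

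Krt8, the type II partner of Krt18, had a scaled signal of 3911.1 in ES cells and 6518.4 in day 2 EBs. In day 8 EBs it was 12289.9 with vehicle, 9143.4 with 1 nM, 10298.1 with 10 nM and 8375.2 with 100 nM RA. In day 29 cultures it was 16095.8 with vehicle, 8424.0 with 10 nM and 7688.2 with 100 nM RA. The day 29 vehicle array stood above all others, 0.39 on the log2 scale above day 8 with vehicle, and from there down to the day 2 EBs no neighbouring pair differed by more than the limit. A second Krt8 probe passed the detection level only on the day 29 array with 100 nM RA, with a scaled signal of 27.8, and stayed between 4.5 and 8.5 on the other 8 arrays.

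Krt18, the type I partner of Krt8, had a scaled signal of 3344.5 in ES cells and 6193.3 in day 2 EBs. In day 8 EBs it was 14959.2 with vehicle, 11063.4 with 1 nM, 12885.4 with 10 nM and 10024.6 with 100 nM RA. In day 29 cultures it was 21361.1 with vehicle, 10967.5 with 10 nM and 9261.6 with 100 nM RA. The order of the 9 arrays was the same as for Krt8, and from day 8 with vehicle down to day 29 with 100 nM RA no neighbours differed by more than the limit. Over the 9 arrays the log2 ratio of Krt18 to Krt8 varied by 0.63, while Krt8 itself varied by 2.04 and Krt18 by 2.68.

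Krt19, the smallest keratin, a type I chain that lacks the usual tail domain, had a scaled signal of 1032.7 in ES cells and 2406.4 in day 2 EBs. In day 8 EBs it was 4003.3 with vehicle, 2512.7 with 1 nM, 3667.6 with 10 nM and 3233.9 with 100 nM RA. In day 29 cultures it was 6267.2 with vehicle, 3755.7 with 10 nM and 3234.7 with 100 nM RA. The day 29 vehicle array was again highest, 0.65 above day 8 with vehicle. Day 8 with 1 nM RA was the lowest of the 7 later arrays and lay 0.06 above the day 2 EBs, within the limit.

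Cdh1 had a scaled signal of 2617.9 in ES cells and 2014.7 in day 2 EBs. In day 8 EBs it was 2394.8 with vehicle, 1812.1 with 1 nM, 2017.8 with 10 nM and 1743.9 with 100 nM RA. In day 29 cultures it was 389.6 with vehicle, 404.2 with 10 nM and 259.9 with 100 nM RA. The first 6 arrays formed an order in which no neighbours differed by more than the limit, and the day 29 arrays lay 2.11 log2 units below the lowest of them. The second Cdh1 probe was dim, with 50.2 in ES cells, 52.6 in day 2 EBs and 68.5 in day 8 EBs with vehicle, and it was not detected on any of the 3 day 29 arrays. On day 8 this probe read 71.2 with 1 nM RA, was not detected with 10 nM, which is at least 2.28-fold lower than with vehicle, and read 28.7 with 100 nM, which is 2.38-fold lower. The main probe was 1.19-fold lower at 10 nM and 1.37-fold lower at 100 nM. The probes gave the same direction but not the same size at these doses, while at 1 nM the second probe was 1.04-fold higher than with vehicle and the main probe 1.32-fold lower.

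As EBs formed and grew, the keratin signals were higher at each step while Cdh1 stayed within 1.30-fold. In day 2 EBs over ES cells, Krt7 was 3.83-fold and Krt19 2.33-fold higher, Krt18 was 1.85-fold and Krt8 1.67-fold higher, and Cdh1 was 1.30-fold lower. Krt7 and Krt19, 2 of 5 genes, thus passed 2-fold upwards and no gene downwards, against 6.19% of all probes higher and 5.34% lower. In day 8 vehicle EBs over day 2 EBs, Krt7 was 5.32-fold and Krt18 2.42-fold higher, again 2 of 5 genes against 5.81% of all probes higher and 5.08% lower, and Krt8 was 1.89-fold, Krt19 1.66-fold and Cdh1 1.19-fold higher. The median over the 5 genes was 0.89 and 0.91 on the log2 scale in these steps, against -0.08 and -0.05 over all probes. The day 2 array stands in both comparisons. All 4 keratins were past the limit in both steps, and Cdh1 was past it only in the first, at -0.38 against 0.352. Without scaling, 2037 probes were at least 2-fold higher and 822 lower in the first step, against 1481 and 1277 with scaling.

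From day 8 to day 29 the keratins and Cdh1 parted. In day 29 over day 8 vehicle cultures, Cdh1 was 6.15-fold lower, whereas Krt19 was 1.57-fold, Krt18 1.43-fold and Krt8 1.31-fold higher and Krt7 1.33-fold lower. Only Cdh1 passed 2-fold, 1 of 5 genes against 18.3% of all probes lower and 19.1% higher. With 10 nM RA Cdh1 was 4.99-fold lower on day 29 than on day 8, and Krt7 1.61-fold lower (15% of all probes were at least 2-fold lower and 16.1% higher). With 100 nM RA Cdh1 was 6.71-fold lower and Krt7 1.44-fold lower (15.7% of all probes lower and 15.9% higher). Krt8, Krt18 and Krt19 differed between day 8 and day 29 by less than the limit at both RA doses, from -0.29 to 0.03. The small keratin differences of the vehicle cultures depended on scaling, since under quantile normalization Krt8 came to -0.10, Krt18 to -0.31 and Krt7 to -1.29. The all-probe split was 4694 higher and 4505 lower, and it moved to 5920 and 3627 with scaling to the median of all probes.

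**Figure D1:**
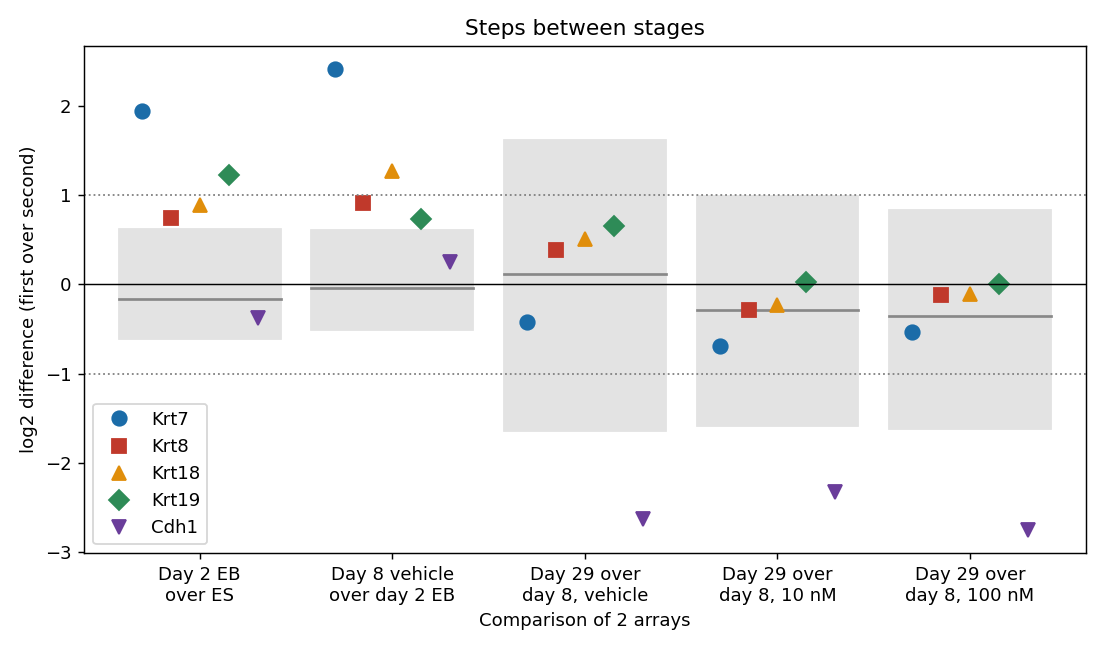
Log2 difference of each gene between 2 arrays for 5 steps between stages (vertical axis), with dotted lines at 2-fold; grey boxes span the 0.05 to 0.95 quantile of the 1614 brightest probes and the grey line is their median. Krt7 leads the first 2 steps (1.94 and 2.41) and Cdh1 lies lowest in the last 3 (-2.62, -2.32 and -2.75), below the boxes; Krt8 and Krt18 of the vehicle step, 0.39 and 0.51 here, fell below 0 under quantile normalization.

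In day 8 EBs the main probes of all 5 genes were lower with RA than with vehicle at each dose, and none by 2-fold, though Krt7 at 1 nM passed it under quantile normalization, at -1.03. With 1 nM RA the differences were -0.67 for Krt19, -0.45 for Krt7, -0.44 for Krt18, -0.43 for Krt8 and -0.40 for Cdh1. With 10 nM RA they were smaller, -0.26 for Krt8, -0.25 for Cdh1, -0.22 for Krt18, -0.13 for Krt19 and -0.02 for Krt7, all within the limit. With 100 nM RA they were -0.58 for Krt18, -0.55 for Krt8, -0.48 for Krt7, -0.46 for Cdh1 and -0.31 for Krt19, all past the limit but Krt19. The sizes did not follow the dose. The main probe of each of the 5 genes was nearer to vehicle at 10 nM than at 1 or 100 nM. The median over the 5 genes was -0.44 at 1 nM, -0.22 at 10 nM and -0.48 at 100 nM, against 0.05, 0.02 and -0.08 over all probes. The share of all probes at least 2-fold lower was 1.68% at 1 nM, 3.88% at 10 nM and 4.91% at 100 nM, and the share at least 2-fold higher was 2.41%, 3.07% and 4.76%. The 3 comparisons share the vehicle array, and the 1 nM comparison is the one that set the limit. In 100 nM over 10 nM RA, which leaves the vehicle array out, the 5 genes were between -0.46 for Krt7 and -0.18 for Krt19. Their median was -0.30, against -0.08 over all probes (3.49% at least 2-fold lower and 3.79% higher). In that comparison the 1614 brightest probes, which include Krt7, Krt8 and Krt18, had a median of -0.17 and a 0.05 quantile of -0.49.

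Other markers moved with these arrays, and their part in the keratin differences was not tested. Summed over 8 pluripotency markers, among them Nanog and Pou5f1, the scaled signal on day 8 was 52913.1 with vehicle, 59119.1 with 1 nM, 41968.2 with 10 nM and 26593.1 with 100 nM RA, with 7, 8, 8 and 5 of 8 detected and Zfp42, Tdgf1 and Dppa5a below detection at 100 nM. Over 14 markers of visceral and parietal endoderm, whose cells carry Krt8 and Krt18 filaments, it was 6176.0, 12547.6, 20552.5 and 15734.0, with 11, 13, 14 and 13 of 14 detected and Cubn, Foxa2 and Lama1 below detection with vehicle. Over 7 markers of trophoblast, another simple epithelium, it was 9408.7, 7947.7, 8259.3 and 6952.8, most of it Tfap2c. Each RA array had a higher endoderm sum than vehicle, but the sum was highest at 10 nM, where the keratins were nearest to vehicle.

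In day 29 cultures that had been exposed to RA from day 2 to day 6, Krt8, Krt18 and Krt19 were lower than with vehicle at both doses. With 10 nM RA Krt18 was 1.95-fold, Krt8 1.91-fold and Krt19 1.67-fold lower, Krt7 was 1.23-fold lower, just within the limit and at 0.01 without scaling and 0.09 under quantile normalization, and Cdh1 was 1.04-fold higher, but at -0.20 in the deposited values as they stand. With 100 nM RA Krt18 was 2.31-fold, Krt8 2.09-fold, Krt19 1.94-fold and Krt7 1.51-fold lower, and Cdh1 was 1.5-fold lower, within its limit of 0.585 at a log2 difference of -0.58. At least 2-fold lower were thus none of the 5 genes at 10 nM, against 8.06% of all probes, and 2 of 5 at 100 nM, against 11.7%. The medians over the 5 genes were -0.74 at 10 nM and -0.95 at 100 nM, and those over all probes were -0.13 and -0.26. Between 100 nM and 10 nM RA the keratins differed by -0.30 for Krt7, -0.24 for Krt18, -0.22 for Krt19 and -0.13 for Krt8. Krt8 came to 0.02 without scaling. Cdh1 differed by -0.64 (8.73% of all probes at least 2-fold lower and 7.07% higher). In that comparison the 1614 brightest probes had a median of -0.23, near the keratin values.

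Bright probes as a whole were lower on the day 29 RA arrays, so these differences have to be read against them. Over the 1614 brightest probes, which include Krt7, Krt8 and Krt18, the median difference from vehicle was -0.34 at 10 nM and -0.60 at 100 nM, with a 0.05 quantile of -0.91 and -1.22. Krt8 at -0.93 and Krt18 at -0.96 lay just below that quantile at 10 nM and, at -1.07 and -1.21, just above it at 100 nM, and Krt7 lay at or near the median at both doses, with -0.29 and -0.60. Under quantile normalization the differences at 100 nM came to -0.35 for Krt8, -0.40 for Krt18 and 0.03 for Krt7, and without scaling to -0.61 for Krt8 and -0.74 for Krt18, so that the 2-fold calls were lost under both. The split of all probes at 100 nM, 2898 higher and 2827 lower, was 4722 and 829 without scaling and 2354 and 4807 in the deposited values as they stand. At 10 nM it was 2896 and 1951, against 4141 and 867 without scaling and 2156 and 3546 as deposited.

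**Figure D2:**
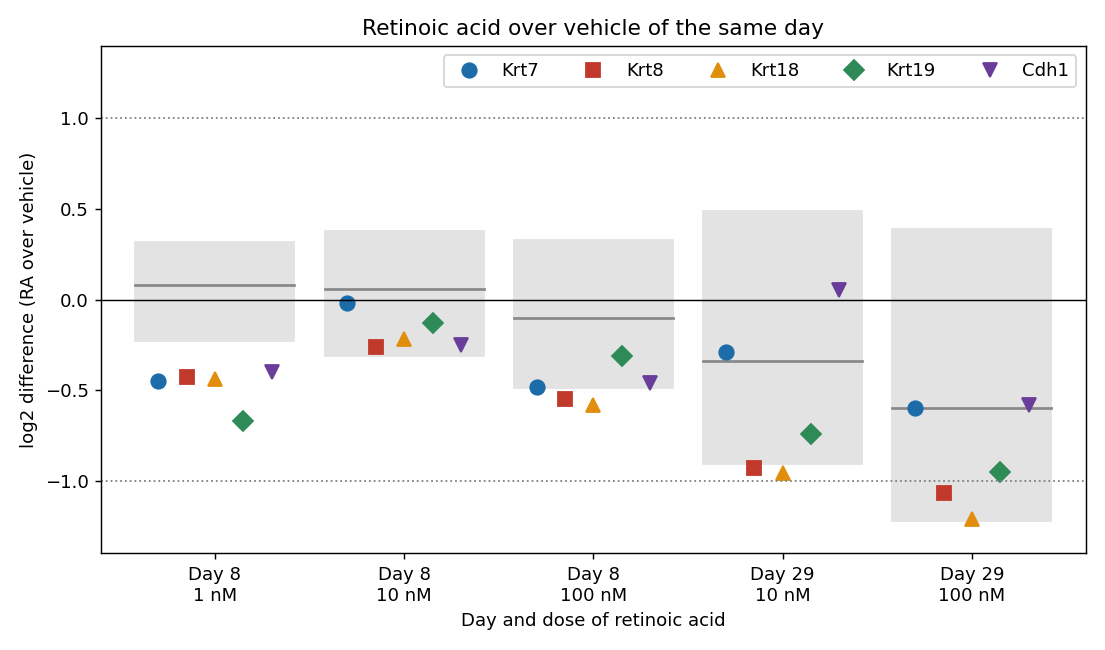
Log2 difference of RA over vehicle of the same day for each gene (vertical axis) by day and dose, with dotted lines at 2-fold; grey boxes span the 0.05 to 0.95 quantile of the 1614 brightest probes and the grey line is their median. The points of day 8 lie between -0.67 and -0.02 and those of the keratins on day 29 between -1.21 and -0.29, where the grey median also lies at -0.34 and -0.60; Krt7 on day 29 came to 0.09 and 0.03 under quantile normalization.

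The endoderm markers also differed between the day 29 arrays. Their summed signal was 91050.1 with vehicle, 80499.9 with 10 nM and 38807.3 with 100 nM RA, with 14, 14 and 13 of 14 detected (Afp was below detection at 100 nM), against 6176.0 in day 8 vehicle EBs. Most of the day 29 vehicle sum was Ttr (20133.9), Gata6 (19829.8), Dab2 (16649.7) and Sparc (13745.5). From day 8 to day 29 with vehicle, 11 of the 14 were at least 2-fold higher and 1 lower, Amn (-1.82), against 19.1% and 18.3% of all probes. With 10 nM RA, 1 of the 14 was at least 2-fold lower than with vehicle on day 29, with a median of -0.27, against 8.06% of all probes. Krt8 and Krt18 were 1.91-fold and 1.95-fold lower at that dose, at -0.93 and -0.96, which is further down than this median. With 100 nM RA 9 of the 14 endoderm markers were at least 2-fold lower, with a median of -1.18, against 11.7% of all probes. That count was 5 without scaling and 12 as deposited. The 7 trophoblast markers summed to 8213.6 with vehicle, 6524.3 with 10 nM and 6435.0 with 100 nM RA, most of it Tfap2c. Of mesothelium markers, 2 of 3 measured were at least 2-fold lower with 10 nM RA and 0 higher, with a median of -1.22. With 100 nM RA, 2 of 4 were higher and 0 lower, with a median of 1.64, against 11.9% of all probes higher. The 6 neural progenitor markers, among them Nes and Pax6, summed to 1275.7 with vehicle, 6443.1 with 10 nM and 11213.0 with 100 nM RA, against 1915.5 in ES cells, with 4 of 6 detected on each, but the ES sum was mostly Nes, an intermediate filament gene, which had 65.7 in the day 29 vehicle culture and 1606.4 in ES cells. Sox9 had 550.7 in the day 29 vehicle culture and 110.4 in ES cells, Pax6 had 354.2 and 132.7, and Zic1 had 293.8 and was not detected in ES cells, so that these 3 were higher in the vehicle culture and Nes lower. Sox1 was detected on none of the 3 day 29 arrays. The 8 pluripotency markers summed to 3359.8 to 6669.9 on the 3 arrays, against 51389.3 in ES cells. Most of the day 29 sums was Klf4, which epithelia also express, with 5447.5 with vehicle, 4515.5 with 10 nM and 2575.2 with 100 nM RA, against 991.2 in ES cells, while Nanog had 130.8 to 209.1 and Pou5f1 140.3 to 292.0, against 7948.4 and 26639.7 in ES cells. The 4 astrocyte markers, Gfap among them, ran the other way, with a sum of 1129.2 with vehicle, 8913.3 with 10 nM and 38748.7 with 100 nM RA. Most of the sum at 100 nM was Gfap, with 25398.1. Of the 3 day 29 arrays, Krt8 and Krt18 were highest with vehicle. The part of any of these cell types in the keratin signals was not tested.

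Many keratins of other epithelia were higher with RA on day 29, where Krt8, Krt18 and Krt19 were lower. Of 25 other keratin genes listed, 24 had a probe and 20 were detected on at least 1 array. With 10 nM RA, 10 of 16 measured ones were at least 2-fold higher than with vehicle and 0 lower, with a median of 2.99, bounds included, against 12% of all probes at least 2-fold higher. Krt13, a type I keratin of internal stratified epithelia, had 3340.5 with 10 nM and 1501.6 with 100 nM RA, against 50.5 with vehicle. Krt17, a keratin of skin appendages and stressed epidermis, had 4020.6 and 270.0, against 136.8 with vehicle. Krt6a had 3802.9 and 986.7, against 309.3, and Krt6b 2266.3 and 593.4, against 174.5, but these 2 are close copies whose probes may share RNA. The largest values therefore came at 10 nM and not at 100 nM RA, where 8 of 16 were at least 2-fold lower than at 10 nM and 1 was higher. The basal pair of stratified epithelia behaved alike, since Krt14 had 11524.3 and 2324.6, against 1100.7 with vehicle, and Krt5 had 271.1 and 70.6 and was not detected with vehicle.

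With 100 nM RA 10 of 16 other keratins were at least 2-fold higher than with vehicle, against 11.9% of all probes, and 1 was lower, with a median of 1.10. The one lower was Krt23, a type I keratin, with 5208.2 at 100 nM and 12931.6 at 10 nM RA, against 14448.4 with vehicle. Krt23 was not detected in day 8 vehicle EBs, so that the day 29 vehicle culture was higher by at least 8.95 on the log2 scale. Under the 4 other scalings tried, 10 of 16 were higher at 10 nM in each, and 7 to 11 of 16 at 100 nM. On day 8, the other keratins at least 2-fold higher were 0 of 12 at 1 nM, 1 of 11 at 10 nM and 2 of 12 at 100 nM. The shares of all probes were 2.41%, 3.07% and 4.76%. At least 2-fold lower were 1 of 12, 1 of 11 and 2 of 12, against 1.68%, 3.88% and 4.91% of all probes. The medians were -0.09 at 1 nM, -0.13 at 10 nM and -0.14 at 100 nM.

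**Figure D3:**
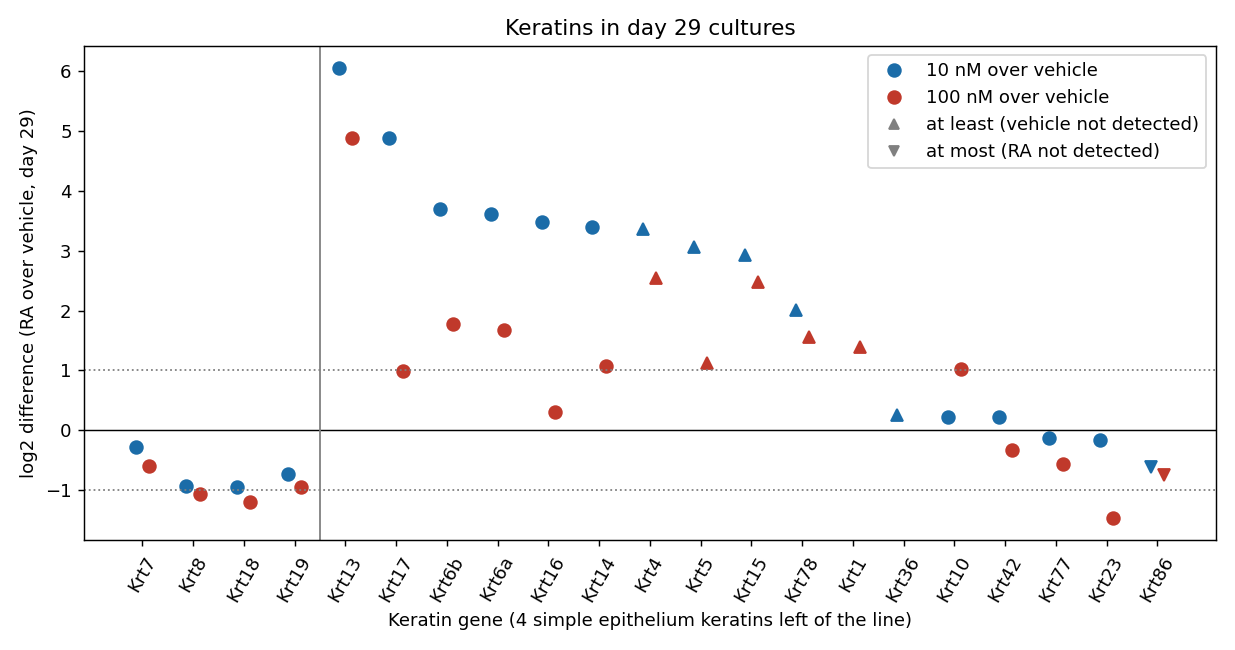
Log2 difference of RA over vehicle in day 29 cultures (vertical axis) for the 4 simple epithelium keratins, left of the line, and the other keratins measured, at 10 nM (blue) and 100 nM RA (red), with dotted lines at 2-fold; triangles are bounds where 1 of the arrays was below detection. The simple keratins lie between -1.21 and -0.29, and Krt13 lies at 6.05 and 4.89; under quantile normalization Krt7 came to 0.09 and 0.03.

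Of the junction genes around Cdh1, the desmosome and adherens junction list had 17 of 19 genes detected on at least 1 array, and Dsp and Dsc2, desmosomal genes, on none. From day 2 to day 8 with vehicle, 4 of 17 were at least 2-fold higher, against 5.81% of all probes, and 0 lower, with a median of 0.39, namely the desmosomal plaque gene Pkp3 (1.26), the plakin Ppl (1.17), P-cadherin Cdh3 (1.12) and the desmosomal cadherin Dsg2 (1.09). From day 8 to day 29 with vehicle, Cdh3 was higher by 2.61, with 1488.8 on day 29 and 243.4 on day 8, while Cdh1 was lower. The plakins Evpl (-3.74) and Ppl (-3.65), the nectin Nectin4 (-1.82) and Perp (at most -1.09) were lower. On day 29 Jup, or plakoglobin, which links cadherins to filaments, had 3080.3 with 10 nM and 2514.7 with 100 nM RA, against 6577.3 with vehicle, and Cdh3 had 374.2 and 974.9, against 1488.8. Evpl and Ppl were higher with RA, Evpl with 496.6 and 276.3, against 103.6 with vehicle. In all, 3 of 17 genes were at least 2-fold higher and 5 lower with 10 nM RA, against 12% and 8.06% of all probes. The 5 lower were Cdh3 (-1.99), Ctnnd1 (-1.22), Nectin2 (-1.22), Nectin1 (-1.11) and Jup (-1.09). Without scaling, all differences of this comparison shift upwards alike, for Krt18 from -0.96 to -0.65. That shift takes all of the 5 but Cdh3 short of 2-fold. With 100 nM RA 3 of 16 were higher and 3 lower, against 11.9% and 11.7%, and without scaling none was lower. The counts at 100 nM, and that of higher genes at 10 nM, were thus near the share of all probes.

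Among the other claudins and tight junction genes, 3 of 19 were at least 2-fold higher and 8 lower with 100 nM RA than with vehicle on day 29, against 11.9% and 11.7% of all probes, with a median of -0.95. The cytoplasmic linker Cgn (-1.96), Cldn3 (-1.78), the polarity gene Crb3 (-1.72) and occludin Ocln (-1.68) were lowest. Crb3 had a scaled signal of 23.8 with 100 nM RA, within the background of that array, whose 0.99 quantile was 77.6 unscaled. Cldn11, the claudin of myelin and Sertoli cells, had 2859.4 with 10 nM and 2988.9 with 100 nM RA, against 58.0 with vehicle, and Cldn1, a barrier claudin of skin, had 533.6 and 1378.4, against 182.4. With 10 nM RA, 2 of 18 were at least 2-fold higher and 2 lower, near the 12% and 8.06% of all probes, with a median of -0.39. The count of lower genes at 100 nM was 4 without scaling and 10 under quantile normalization. At the earlier steps Cldn3 was at least 2-fold higher each time, by 1.17 in day 2 EBs over ES cells and by 1.39 in day 8 vehicle EBs over day 2 EBs, as Krt7 was. Cldn4, a claudin of simple epithelia, had 7047.1 in ES cells, 10685.3 in day 2 EBs and 15167.7 in day 8 vehicle EBs, and 6770.9 in the day 29 vehicle culture.

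Of the genes that regulate or mark epithelia, many were lower on day 29 than on day 8, as Cdh1 was. With vehicle, 12 of 23 were at least 2-fold lower and 5 higher on day 29, with a median of -1.04, against 18.3% of all probes lower and 19.1% higher, so that the count of higher ones was near the share of all probes. Lowest were the grainyhead factors Grhl3 (at most -3.51) and Grhl1 (-2.97), the splicing regulator Esrp1 (-2.65) and the small GTPase Rab25 (-2.51). The 5 higher ones included the zinc finger repressor Ovol2 (1.97), Prom2 (at least 1.73), Tfap2a (1.57) and Esrp2 (1.05). The same step with RA gave 10 of 23 lower and 2 higher at 10 nM (15% and 16.1% of all probes), and 12 lower and 2 higher at 100 nM (15.7% and 15.9%). Of the genes of mesenchymal cells, among them transcription factors that repress Cdh1, 13 were measured. Zeb1, such a repressor, had 104.6 in ES cells, 206.9 in day 2 EBs, 383.9 in day 8 vehicle EBs and 1310.2 in day 29 vehicle cultures. Snai1, another, had 258.4 on day 29 and was not detected in day 8 vehicle EBs. From day 8 to day 29 with vehicle, Pdgfra (5.17), Snai1 (at least 3.15), Col3a1 (2.71) and Zeb1 (1.77) were highest. Zeb2 was at 0.86, Twist1 at 0.07 and Twist2 at -0.97. Fibronectin Fn1 (-2.23) and N-cadherin Cdh2 (-1.38) were lower in that step, and over the list 5 of 13 were at least 2-fold higher and 2 lower, with a median of 0.37, against 19.1% and 18.3% of all probes. On day 29, 8 of 13 were at least 2-fold higher with 100 nM RA than with vehicle, against 11.9% of all probes, with a median of 1.58, and 1 was lower, Snai1 (-1.62). The collagens Col1a2 (4.60) and Col1a1 (3.66) and Cdh2 (2.36) were among the highest. Cdh1 was between 259.9 and 404.2 on the 3 arrays of that day.

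Across the 9 arrays Krt8, Krt18 and Krt19 had like profiles, Krt7 departed from them in part, and Cdh1 differed from all 4 between stages. As a description, the Pearson correlation of log2 signals over the 9 arrays, which share stages and a scaling, was 0.99 for Krt8 with Krt18, 0.94 for Krt8 with Krt19, 0.95 for Krt18 with Krt19 and 0.86 to 0.92 for Krt7 with the others. The log2 ratio of Krt7 to Krt8 varied by 2.93, more than Krt8 itself at 2.04, and Krt7 was highest on day 8, whereas the other 3 keratins were highest in the day 29 vehicle culture (Krt8 and Krt18 were not under quantile normalization). Cdh1 had -0.26 to -0.52 with the 4 keratins over the 9 arrays, and 0.76 to 0.99 over the 4 arrays of day 8. Within day 8 the main Cdh1 probe did not part from them. The main probes of all 5 genes were lower with each RA dose than with the shared vehicle array and nearest to it at 10 nM. At 10 nM all 5 were within the limit. The second Cdh1 probe was nearest to vehicle at 1 nM. Among 4938 genes detected on at least 3 arrays that spanned at least 2 log2 units, the gene most like Krt8 was Krt18 (r = 0.99), followed by Prkcz (0.954), an atypical protein kinase C of cell polarity, and Cldn23 (0.949). Most like Krt18 were Krt8, Cldn23 (0.972) and Krt19 (0.954). Most like Krt19 were Traf3ip2 (0.979), an adaptor of interleukin 17 receptors, Rin3 (0.957) and Krt18. Krt7 was most like Cdkn2b (0.993), a cell cycle inhibitor, Gpat2 (0.985) and Dysf (0.985), a membrane repair gene, with Krt18, Krt8 and Krt19 at ranks 30, 67 and 76. Cdh1 was most like Pkd1l2 (0.994), Gdf3 (0.989), a growth factor of pluripotent cells, and Zmym1 (0.989). Gdf3 had 5086.0 in ES cells, 3353.7 in day 8 vehicle EBs and 56.1 in the day 29 vehicle culture.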

How the data were processed

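The study hybridised biotin-labelled cRNA, made from mixed RNA of several biological replicates, to 9 Illumina MouseWG-6 arrays, 1 per condition. The values used are the log2 values deposited by the authors, made with GeneSpring GX, which are a signal relative to a constant of each array and a baseline of each probe. A second deposited table, with 9 signal columns and 9 detection p columns whose names match no sample label, was not used. No genome build is given in the sources used here. Signals were recovered from the log2 values as whole steps above a floor of 50 steps, with 1 step set to 0.1. This was exact for 20135 probes, exact with an array at the floor for 19118, approximate in level for 1140 (Krt7, Krt8 and Krt18 among them, which leaves differences between arrays as they are) and not possible for 6250 at the floor on all arrays. The detection level of 29.1 was set from background probes, which for each array are those that read the floor on 6 or more of the remaining 8. Their 0.99 quantile was taken per array, and the median of the 9 quantiles was used. Arrays were put on 1 scale by the median of the 16136 probes that every array detected. An array below detection was set to that level and the difference given as a bound, and where neither array detected a probe no difference was given. A gene was called at 2-fold.

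Probe names came from the platform annotation, updated by gene identifier to RefSeq symbols. Of 46643 probes, 32794 had 1 symbol, 55 several and 13794 none. A gene was represented by its brightest probe. Named genes were all 7 listed ones, up to 4 per direction of each of 14 lists, and the 3 genes most correlated with each. Some further genes of these lists were also named. The members and lists were chosen with earlier results of these data known. Probe sequences were not used, so binding of other RNAs was not tested. The alternatives were 4 other scalings, 2 higher detection levels, no detection limit and the mean over probes. The recovery and the differences were tested on simulated data. Python 3.11.15, numpy 2.4.6, pandas 2.3.3 and matplotlib 3.10.9 were used. The labels give day 29 for the stage that the text of the study gives as a later day, and the labels were followed. With a single array for each condition, it is their number that limits precision.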

Additional observations from a re-analysis of the deposited data

Results flagged for a closer look

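One value stood outside the measurements used above. The second Krt8 probe, below detection on the other 8 arrays, had a scaled signal of 27.8 (34.2 unscaled) in the day 29 culture with 100 nM RA, above the detection level of 29.1 on the unscaled scale and above its value of 5.6 in the day 29 vehicle culture. The 0.99 quantile of background probes on that array was 77.6, so the probe lay within the background of its own array. The main Krt8 probe was 2.09-fold lower on that array than with vehicle.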

How the results depend on the processing

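Each of the 12 medians over the 5 genes was recomputed under 8 alternatives. Of 96 values, 88 moved by less than a spread of 0.297 and 8 by more. This spread is the robust SD over all probes in 1 nM RA over vehicle on day 8. It is wider than the 0.150 of probes with a signal above 3904.0. In day 29 over day 8 vehicle cultures the median of 0.39 came to -0.31 under quantile normalization. In 100 nM RA over vehicle on day 29 the median of -0.95 came to -0.49 without scaling, -0.40 under quantile normalization, -0.60 with every probe and no detection limit and -0.65 with the mean over probes. In 10 nM RA over vehicle on day 29 the median of -0.74 came to -0.43 without scaling, -0.38 under quantile normalization and -0.31 with no detection limit. Of 480 values of single genes, 449 moved by less than that spread and 31 by more. Part of the 449 were fixed in advance. Dropping the detection limit cannot move the main probes, which were detected on all 9 arrays. The mean over probes cannot move Krt7, Krt18 and Krt19, which have 1 probe each. Krt8 and Krt18 with 10 nM RA on day 29 passed 2-fold in the deposited values as they stand, at -1.19 and -1.21, and with the median of all probes, at -1.15 and -1.17, and so did Krt19 with 100 nM RA, at -1.18 and -1.01. Krt18 in day 2 EBs over ES cells passed it without scaling, at 1.04. Under quantile normalization Krt8 in day 8 vehicle over day 2 EBs (1.05), Krt7 in day 29 over day 8 vehicle cultures (-1.29) and Krt7 with 1 nM RA on day 8 (-1.03) passed it. Krt8 and Krt18 with 100 nM RA on day 29 lost it without scaling, at -0.61 and -0.74, and under quantile normalization, at -0.35 and -0.40. Krt8 there also lost it at detection levels of 50 and 100, at -0.98 and -0.86, and with the mean over probes, at -0.65, and Krt18 at a level of 100, at -0.99. The median over all probes shifted by over 0.1 with scaling on day 29, to 0.20 without scaling and -0.48 as deposited at 100 nM, against -0.26. The cause of these shifts was not tested. No paired analysis was possible because each condition has 1 array. With no replicate arrays, no difference has an error between cultures, and values near the background of the day 29 RA arrays are the least certain.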
